A study of Homo sapiens with 12 samples.

Results

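The members described here are 9 genes that encode dual specificity MAP kinase phosphatases, DUSP1, DUSP2, DUSP4, DUSP5, DUSP6, DUSP8, DUSP10, DUSP14 and DUSP16. A probe was taken where the gene symbol of the array platform, or an older name of the gene, is a member, which gave 1 probe for each of the 9 genes among 24529 transcripts tested. All 9 were measured on every array, so none was lost to a filter. The RNA came from LNCaP cells, an established line from a human prostate carcinoma that was the only cell line on these arrays. It was taken from cells without drug (control), cells given 5 mM metformin and cells given 5 mM AICAR, each for 24 h, and the labels name no other agent or genetic change in any group. Metformin is a biguanide used against diabetes that inhibits respiratory complex I, and AICAR is a nucleoside whose phosphorylated form mimics AMP and switches on AMPK, the energy-sensing kinase. The 3 conditions were compared in pairs on 2-colour arrays in 2 independent cultures. The dyes Cy3 and Cy5 were exchanged between the arrays of a pair, which gave 4 arrays per comparison and 12 in all.

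MAP kinases (ERK, JNK and p38) are switched on when both a threonine and a tyrosine of their activation loop are phosphorylated, and the dual specificity phosphatases switch them off by removing both phosphates. Many of these phosphatases are encoded by immediate early or delayed early genes that the kinases themselves induce, so they act as feedback inhibitors. The members differ in where they act and on which kinase: DUSP1, DUSP2, DUSP4 and DUSP5 are inducible nuclear enzymes, DUSP6 is a cytoplasmic enzyme selective for ERK, DUSP8, DUSP10 and DUSP16 prefer JNK and p38, and DUSP14 is a small atypical enzyme without the kinase-binding domain.

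The data give differences between conditions and no levels, so they show neither how abundant a DUSP mRNA was nor how members rank against one another. For the same reason, the identity of the cells could not be checked from marker levels. In a bulk extract, fewer cells with a transcript and less of it per cell cannot be told apart. Of 8 prostate luminal markers 5 were measured. Of these, 2 were lower with metformin and 1 was lower with AICAR than in control cells, beside 1.24% and 2.89% of all transcripts. With metformin the 5 ratios to control ranged from −1.04 to −0.40, and 4 had an unadjusted p under 0.05 (limma). With AICAR they ranged from −1.90 to 0.36, and 3 had an unadjusted p under 0.05 (limma). TMPRSS2, an androgen-induced protease gene, fell by 1.04 on the log2 scale with metformin and by 1.90 with AICAR against control (adjusted p = 0.0387 and 0.00982, limma). For metformin against AICAR it was at 0.86, the 1 luminal marker that passed between the drugs, beside 4.59% of all transcripts higher. This was the highest of the 5 ratios between the drugs, which ranged down to −0.78 with a median of −0.37. Of these 5, 3 had an unadjusted p under 0.05 (limma). KLK3, the gene for prostate-specific antigen, was at −0.72 for metformin against control (adjusted p = 0.0456, limma) as the mean of 3 probes that ranged from −1.43 to 0.47. With AICAR, FOLH1 at 0.36 and KLK2 at 0.06 had positive ratios to control and did not pass. Of 15 measured markers of fibroblasts, leukocytes, endothelium and basal epithelium, 0 passed in any comparison, with log2 ratios between −0.54 and 0.38, and 2 to 3 of them had an unadjusted p under 0.05 in a comparison. The part of these marker differences in the DUSP results was not tested.

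Promoter windows were found in the RefSeq table (GRCh38.p14) for 7 of the 9 members, with 2 start sites for DUSP10. DUSP4 and DUSP5 were not searched. In the assembly DUSP1 lies on chromosome 5, DUSP2 on 2, DUSP4 on 8, DUSP5 on 10, DUSP6 and DUSP16 on 12, DUSP8 on 11, DUSP10 on 1 and DUSP14 on 17. A window runs from 250 bases before the transcription start to 50 bases after it. The bases before the start are shown for DUSP1 and DUSP8, whose transcripts moved in opposite directions in AICAR-treated cells, and for DUSP16, which differed between the 2 drugs. They are chr5:172771196-172771445, chr11:1572272-1572521 and chr12:12562864-12563113, all on the minus strand and written 5′ to 3′ in the direction of transcription. The DUSP8 start used here lies inside the annotated gene and not at its outer end. Capitals mark every match, on either strand, to the motifs that were searched: the cyclic AMP response element (CRE) TGACGTCA, its first 5 letters TGACG, the AP-1 site TGAGTCA, the E-box CACGTG, the TATA box TATAAA and the SP1 site GGGCGG.
DUSP1: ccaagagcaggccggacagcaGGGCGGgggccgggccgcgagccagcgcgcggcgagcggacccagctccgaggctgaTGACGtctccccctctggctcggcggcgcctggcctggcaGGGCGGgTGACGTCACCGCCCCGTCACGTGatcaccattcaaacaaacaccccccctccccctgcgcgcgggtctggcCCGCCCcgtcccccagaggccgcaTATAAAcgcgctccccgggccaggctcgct
DUSP8: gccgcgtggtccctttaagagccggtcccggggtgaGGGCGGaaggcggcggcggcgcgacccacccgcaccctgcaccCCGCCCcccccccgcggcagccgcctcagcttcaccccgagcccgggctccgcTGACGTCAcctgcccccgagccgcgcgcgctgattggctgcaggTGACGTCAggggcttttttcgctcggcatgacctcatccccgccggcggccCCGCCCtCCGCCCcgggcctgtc
DUSP16: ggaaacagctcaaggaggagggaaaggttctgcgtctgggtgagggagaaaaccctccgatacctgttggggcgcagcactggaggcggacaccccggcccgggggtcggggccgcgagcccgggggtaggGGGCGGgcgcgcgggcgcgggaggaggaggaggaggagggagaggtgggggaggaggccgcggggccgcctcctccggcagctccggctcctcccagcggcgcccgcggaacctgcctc

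The full CRE occurred in 2 of the 8 member windows, those of DUSP1 and DUSP8, and in 1.85% of all 35116 windows of the table. In DUSP1 it began 125 bases before the start. DUSP8 held 2 copies, 118 and 74 bases before the start. The 5-letter motif, which lies inside the CRE, occurred in the windows of DUSP1, DUSP8 and 1 of the DUSP10 starts, and in 24.6% of all windows. An E-box lay 108 bases before the start in DUSP1 and 113 bases before it in DUSP2 (7.26% of all windows). Of the 7 members searched, DUSP1 alone had the TATA box letters, 30 bases before its start (11.5% of all windows). The AP-1 letters occurred in 0 member windows (4.95% of all windows). SP1 letters were found for 6 of the 7 members searched, DUSP6 being the exception, and in 45% of all windows. They were the only match in the windows of DUSP14, DUSP16 and 1 of the DUSP10 starts. These matches describe letters in a window and carry no information on binding.

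**Figure D1:**
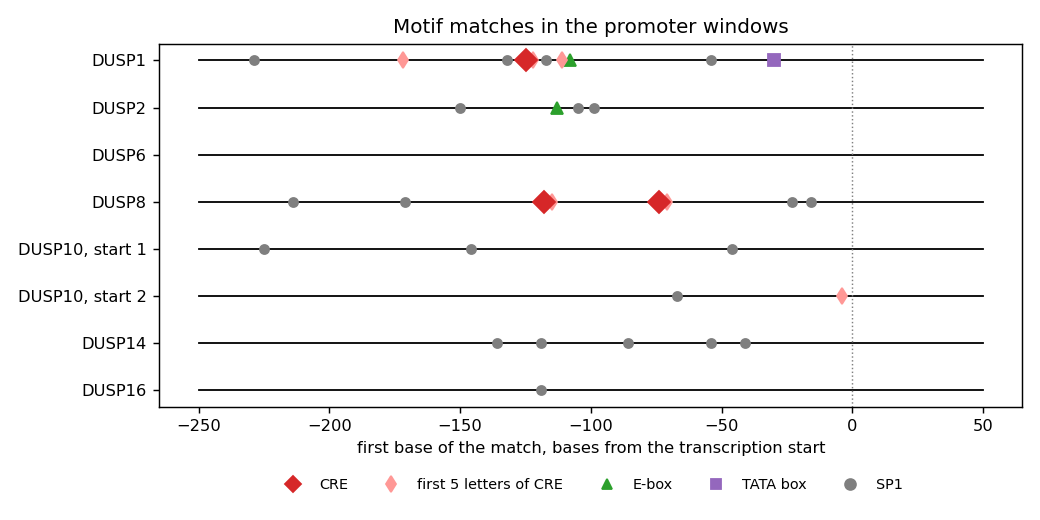
Matches to the motifs in the promoter windows of 7 members, 1 line per window and 2 for DUSP10. The x axis gives the distance of the first base of a match from the transcription start, in bases. The CRE is seen in the windows of DUSP1 (125 bases before the start) and DUSP8 (118 and 74 bases before it) only.

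Each value below is a log2 ratio of 1 condition to another, and a positive value means a higher level in the condition named first. Neither the base of the logarithm nor the direction of the deposited ratios is stated in the sources used here. The values were taken as log2 ratios with Cy5 in the numerator and Cy3 in the denominator, and the direction is likely rather than settled. It rests on the convention of limma, the package used to make them, on the dyes in the sample labels, and on the study's naming of XBP1, ATF4, ATF6 and DNAJB9, genes of the unfolded protein response, as raised by metformin. Read this way, these genes had log2 ratios of metformin to control of 1.06, 1.13, 0.42 and 1.70. Fitted ratios combine the direct arrays of a comparison with the path through the third condition, and passing required a Benjamini-Hochberg adjusted p under 0.05 together with a log2 ratio beyond 0.7 in either direction. SE and the 95% confidence interval come from limma's moderated variance over 2 cultures. That variance is pooled over the 3 conditions and drawn towards that of all transcripts, so a gene has the same SE in all 3 comparisons. The p-values thus rest on this pooled spread and not on the spread of a single ratio between the cultures. The 3 comparisons share extracts and are not independent of one another.

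In AICAR-treated cells, DUSP4 and DUSP1 fell and DUSP8 rose against control, and the other 6 members did not pass. Metformin moved 0 of the 9 members past the test in limma, and 2 of them, DUSP4 and DUSP16, had an unadjusted p under 0.05. Between the 2 drugs, DUSP1, DUSP4 and DUSP16 were higher with metformin and DUSP8 was higher with AICAR. For AICAR against control, 2 members passed as lower, beside 2.89% of all transcripts, and 1 passed as higher, beside 0.453%. For metformin against control the counts of 0 higher and 0 lower stood beside 1.50% and 1.24% of all transcripts. For metformin against AICAR, 3 members were higher, beside 4.59% of all transcripts, and 1 was lower, beside 2.01%. The median log2 ratio of the 9 members was 0.03 for metformin against control, −0.29 for AICAR against control and 0.50 between the drugs, and over all transcripts it was −0.00014, 0.04 and −0.03. Of the 9 members, 8 had a negative ratio of AICAR to control, a comparison in which 60.4% of all transcripts had a positive one. For DUSP2, DUSP5, DUSP6, DUSP14 and DUSP16 the confidence interval of this ratio included 0. In culture 1 the fitted ratios of DUSP5 and DUSP16 were positive, at 0.02 and 0.0065. Dye-swap partners had the same sign for 5 of the 9 members in culture 1 of this comparison, and for 8 in culture 2.

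**Figure D2:**
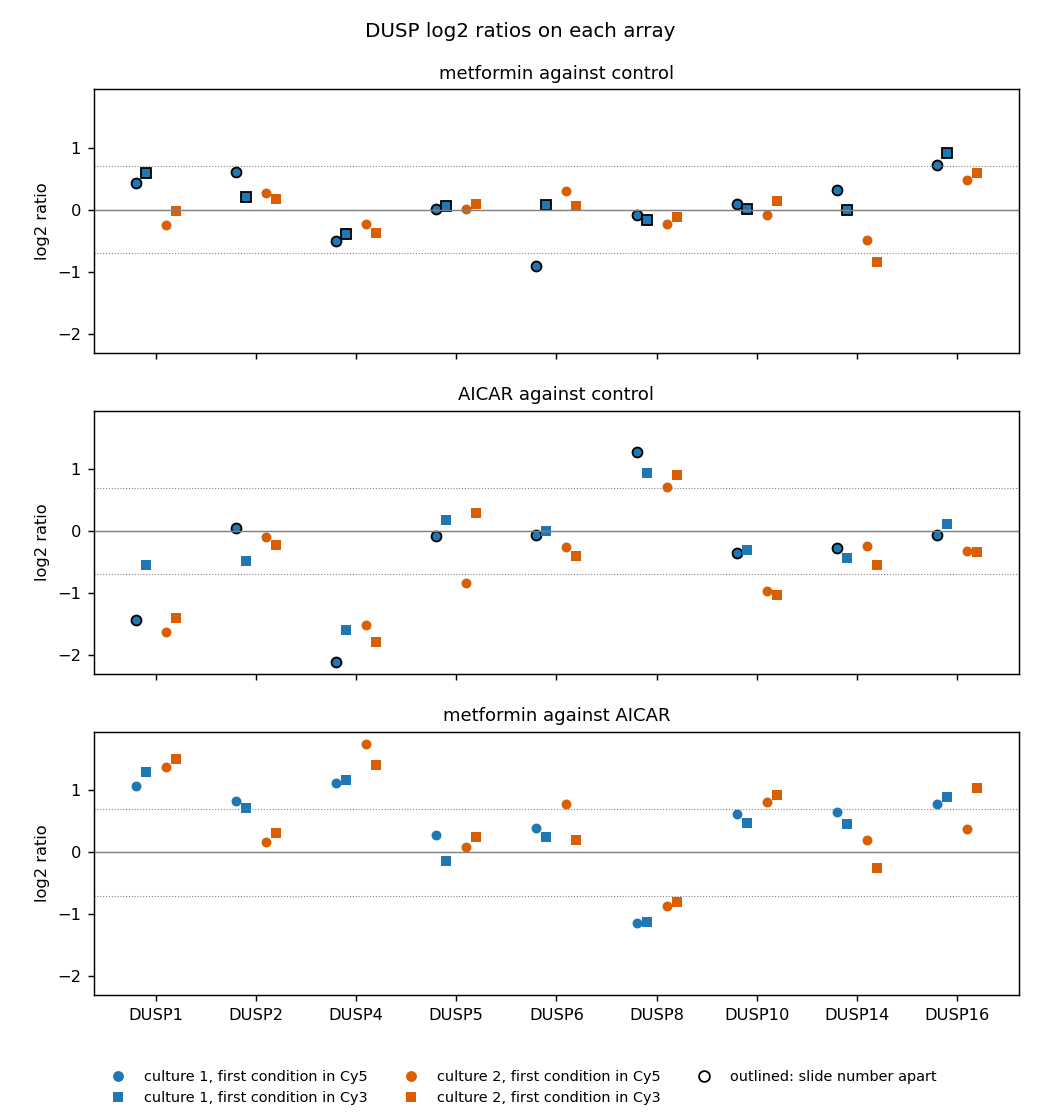
Log2 ratio of each member (x axis) on each of the 4 arrays of a comparison (3 panels), coloured by culture, with circles where the condition named first was in Cy5 and squares where it was in Cy3. Outlined points are the 3 arrays whose slide numbers stand apart, and dotted lines mark log2 ratios of 0.7 and −0.7. DUSP4 lies below −1.5 on all 4 arrays of AICAR against control and DUSP8 above 0.7 on all 4.

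DUSP4, also called MKP-2, is an inducible nuclear phosphatase of ERK and JNK, and its fall in AICAR-treated cells was the largest change among the members. The log2 ratio of AICAR to control was −2.11 and −1.60 on the arrays of culture 1 and −1.51 and −1.79 on those of culture 2. All 4 arrays were thus far below 0, and the values of the cultures overlapped. The fitted ratio was −1.75 (SE 0.10, 95% interval −2.02 to −1.48, n = 2 cultures, adjusted p = 0.00757, limma), a level 3.35-fold lower than in control cells. Only 0.338% of all transcripts had a lower ratio. With metformin, the 4 arrays gave −0.51, −0.39, −0.24 and −0.37. They were all on the negative side, but the fitted ratio of −0.38 (SE 0.10, interval −0.65 to −0.11, adjusted p = 0.151, limma) did not pass. The direct comparison of the drugs gave 1.11 and 1.17 in culture 1 and 1.75 and 1.40 in culture 2. DUSP4 was therefore higher with metformin than with AICAR on every array, by a fitted log2 ratio of 1.36 (SE 0.10, adjusted p = 0.00558, limma) or 2.57-fold.

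DUSP1, or MKP-1, is the stress- and mitogen-induced nuclear phosphatase of p38, JNK and ERK. In AICAR-treated against control cells its log2 ratio was −1.44 and −0.54 in culture 1 and −1.62 and −1.40 in culture 2. All 4 arrays were negative, and the array of culture 1 with AICAR in Cy3 showed much the smallest difference. The fitted ratio was −1.21 (SE 0.17, interval −1.65 to −0.77, adjusted p = 0.0310, limma), 2.31-fold lower than control, with −0.88 in culture 1 and −1.53 in culture 2. In culture 1, the arrays whose slide numbers stand apart are 3, the pair that set metformin against control and the one that set AICAR in Cy5 against control. Without them, culture 1 keeps a single array against control, the one with AICAR in Cy3. The culture 1 ratio of metformin to control then rests on that array and the path through AICAR. In this setting the DUSP1 ratio of AICAR to control was −1.04 and no longer passed (adjusted p = 0.141, limma). Over all transcripts, 380 passed as lower for this comparison in this setting, against 709 with all arrays.

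For metformin against control, DUSP1 was at 0.44 and 0.59 in culture 1 and at −0.25 and −0.01 in culture 2. The cultures did not overlap and lay on opposite sides of 0, and the fitted ratio of 0.15 (SE 0.17, interval −0.29 to 0.59, adjusted p = 0.770, limma) did not pass. Both arrays of culture 1 in this comparison are among the 3 with slide numbers apart, so culture and slide set cannot be told apart there. Metformin against AICAR, which uses none of those arrays directly, gave 1.07 and 1.30 in culture 1 and 1.38 and 1.50 in culture 2. All 4 arrays were close together, and the fitted ratio of 1.36 (SE 0.17, interval 0.91 to 1.80, adjusted p = 0.0150, limma) corresponds to a DUSP1 level 2.56-fold higher with metformin than with AICAR. Without the 3 arrays it was 1.30 (adjusted p = 0.0521, limma), just outside the threshold.

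The other nuclear members moved less. DUSP2, or PAC-1, a phosphatase first known from activated lymphocytes, had ratios of metformin to control of 0.62, 0.20, 0.27 and 0.18. All 4 were positive, and the fitted ratio of 0.31 (SE 0.12, interval −0.0019 to 0.63, adjusted p = 0.288, limma) did not pass. Against AICAR it was at 0.82 and 0.71 in culture 1 and 0.17 and 0.31 in culture 2, with a fitted ratio of 0.50 (SE 0.12, adjusted p = 0.0705, limma), and AICAR against control gave −0.19 (SE 0.12, adjusted p = 0.451, limma). DUSP5, a nuclear phosphatase selective for ERK, had the narrowest arrays of any member for metformin against control, from 0.01 to 0.09. Its fitted ratio was 0.03 (interval −0.20 to 0.27), so a change beyond the threshold of 0.7 lies outside the interval. For AICAR against control, 1 array of culture 2 was at −0.84 and its dye-swap partner at 0.29, and the fitted ratio of −0.10 (SE 0.09, adjusted p = 0.585, limma) did not pass. Metformin against AICAR gave 0.13 for DUSP5 (SE 0.09, adjusted p = 0.430, limma).

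DUSP6, or MKP-3, is the cytoplasmic feedback inhibitor of ERK and is often read as a marker of ERK activity. It passed in 0 of the 3 comparisons in limma, and its unadjusted p was under 0.05 in 0. Its ratios of metformin to control were −0.90 and 0.08 in culture 1 and 0.30 and 0.07 in culture 2. A single array, with metformin in Cy5 and a slide number apart, was below the other 3, and the fitted ratio was −0.0010 (SE 0.12, interval −0.32 to 0.32, adjusted p = 0.998, limma). Without the 3 arrays with slide numbers apart it was 0.25 (adjusted p = 0.437, limma). With AICAR the arrays ranged from −0.40 to 0.01, with a fitted ratio of −0.29 (SE 0.12, interval −0.61 to 0.03, adjusted p = 0.270, limma). Metformin against AICAR was positive on all 4 arrays, from 0.20 to 0.78, with a fitted ratio of 0.29 (SE 0.12, adjusted p = 0.222, limma).

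**Figure D3:**
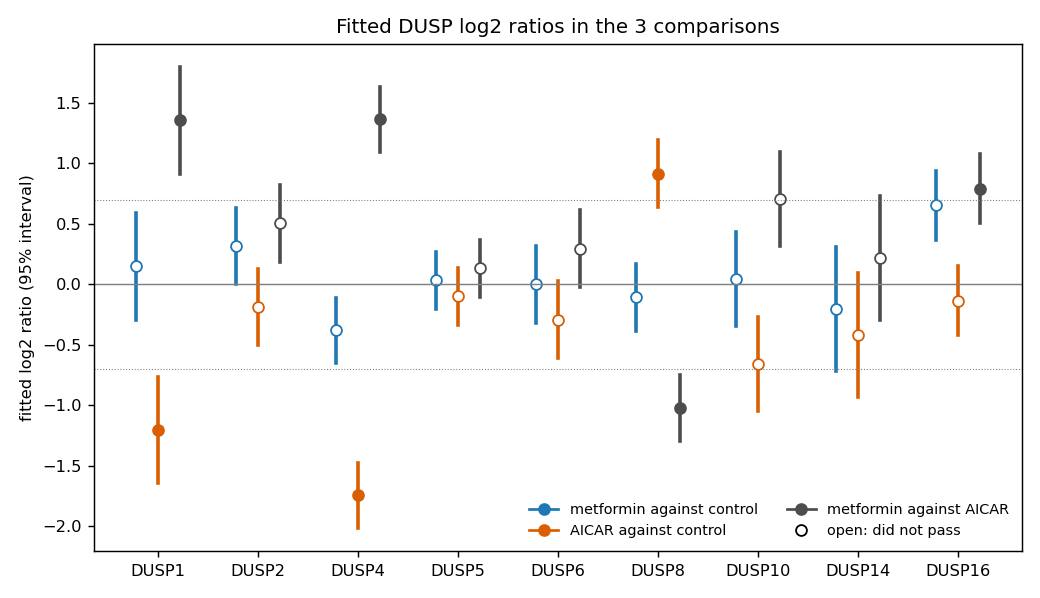
Fitted log2 ratio of each member (x axis) in the 3 comparisons, with bars for the 95% confidence interval over 2 cultures. Filled points passed the test and open points did not, and dotted lines mark 0.7 and −0.7. DUSP4 (−1.75) and DUSP1 (−1.21) lie lowest and DUSP8 (0.91) highest for AICAR against control.

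The members that prefer JNK and p38 did not move together. DUSP8, known as hVH-5 and in the mouse as M3/6, was the only member that rose with AICAR. Its log2 ratio to control was 1.28 and 0.94 in culture 1 and 0.71 and 0.90 in culture 2. Every array was above 0.7, and the values of culture 1 were above those of culture 2. The fitted ratio was 0.91 (SE 0.11, interval 0.64 to 1.19, adjusted p = 0.0208, limma), a level 1.89-fold that of control cells, and 0.485% of all transcripts had a higher ratio. When all arrays were scaled to 1 common spread, the ratio stayed at 0.91 and missed the threshold (adjusted p = 0.0656, limma). With metformin, DUSP8 was between −0.23 and −0.09 on the 4 arrays, and the fitted ratio was −0.11 (SE 0.11, interval −0.38 to 0.17, adjusted p = 0.721, limma). Between the drugs it was at −1.14 and −1.13 in culture 1 and −0.86 and −0.81 in culture 2. Dye-swap partners were nearly equal here, and the fitted ratio of −1.02 (SE 0.11, adjusted p = 0.0105, limma) means 2.03-fold less DUSP8 mRNA with metformin than with AICAR.

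DUSP16, or MKP-7, a phosphatase of JNK and p38 that shuttles between nucleus and cytoplasm, was the member with the highest ratio of metformin to control. It was at 0.72 and 0.91 in culture 1 and at 0.48 and 0.59 in culture 2. All 4 arrays were positive and the cultures did not overlap. The fitted ratio of 0.65 (SE 0.11, interval 0.37 to 0.94, 1.57-fold, adjusted p = 0.0535, limma) fell short of both thresholds, although 2.50% of all transcripts had a higher one. With AICAR, DUSP16 was at −0.07 and 0.11 in culture 1 and at −0.33 and −0.34 in culture 2, and the fitted ratio of −0.14 (SE 0.11, interval −0.42 to 0.15, adjusted p = 0.542, limma) did not pass. The ratio of metformin to AICAR tests the difference between the responses to the drugs. It was 0.78 and 0.89 in culture 1 and 0.37 and 1.04 in culture 2. The dye-swap partners of culture 2 were thus farther apart than the cultures. The fitted ratio of 0.79 (SE 0.11, interval 0.51 to 1.08, adjusted p = 0.0191, limma) passed, at 1.73-fold.

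DUSP10, or MKP-5, the remaining JNK and p38 phosphatase among the members, lay close to the threshold in both comparisons with AICAR. Against control it was at −0.35 and −0.30 in culture 1 and at −0.97 and −1.02 in culture 2. All 4 arrays were negative, dye-swap partners differed by little and the cultures differed by much more. The fitted ratio was −0.66 (SE 0.15, interval −1.05 to −0.27, adjusted p = 0.0925, limma). For metformin against AICAR the arrays were at 0.61, 0.47, 0.81 and 0.92. They were again all on 1 side, with a fitted ratio of 0.70 (SE 0.15, interval 0.31 to 1.09, adjusted p = 0.0516, limma). It passed under 5 of 12 alternative settings, among them those that treat each array as a separate data point. For metformin against control, DUSP10 was between −0.08 and 0.15, with a fitted ratio of 0.04 (interval −0.35 to 0.43, adjusted p = 0.940, limma).

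DUSP14, or MKP-6, the atypical member, passed in 0 comparisons in limma, with an unadjusted p under 0.05 in 0, and had the largest standard error of the 9. Its ratio of metformin to control was 0.32 and 0.00 in culture 1 and −0.48 and −0.85 in culture 2. The cultures lay on opposite sides of 0 without overlap, and the fitted ratio was −0.20 (SE 0.20, interval −0.72 to 0.31, adjusted p = 0.720, limma). AICAR against control was more even, from −0.54 to −0.25 on the 4 arrays, with a fitted ratio of −0.42 (SE 0.20, adjusted p = 0.313, limma). Metformin against AICAR was at 0.65 and 0.46 in culture 1 and at 0.20 and −0.25 in culture 2, with a fitted ratio of 0.22 (SE 0.20, interval −0.30 to 0.73, adjusted p = 0.562, limma).

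Set out as relative levels of the 3 conditions in a culture, the AICAR extract was the lowest in both cultures for DUSP1, DUSP2, DUSP4, DUSP6 and DUSP10, and the highest in both for DUSP8. The control extract was the highest in both cultures for DUSP4, at 0.77 and 0.65 above the mean of its culture on the log2 scale, followed by metformin at 0.23 and 0.42 and AICAR at −0.998 and −1.08. For DUSP1, control and metformin changed places between the cultures. DUSP16 was highest in the metformin extract, at 0.55 and 0.41, with control below AICAR in culture 1 and above it in culture 2. For DUSP5 and DUSP14 the lowest condition differed between the cultures.

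**Figure D4:**
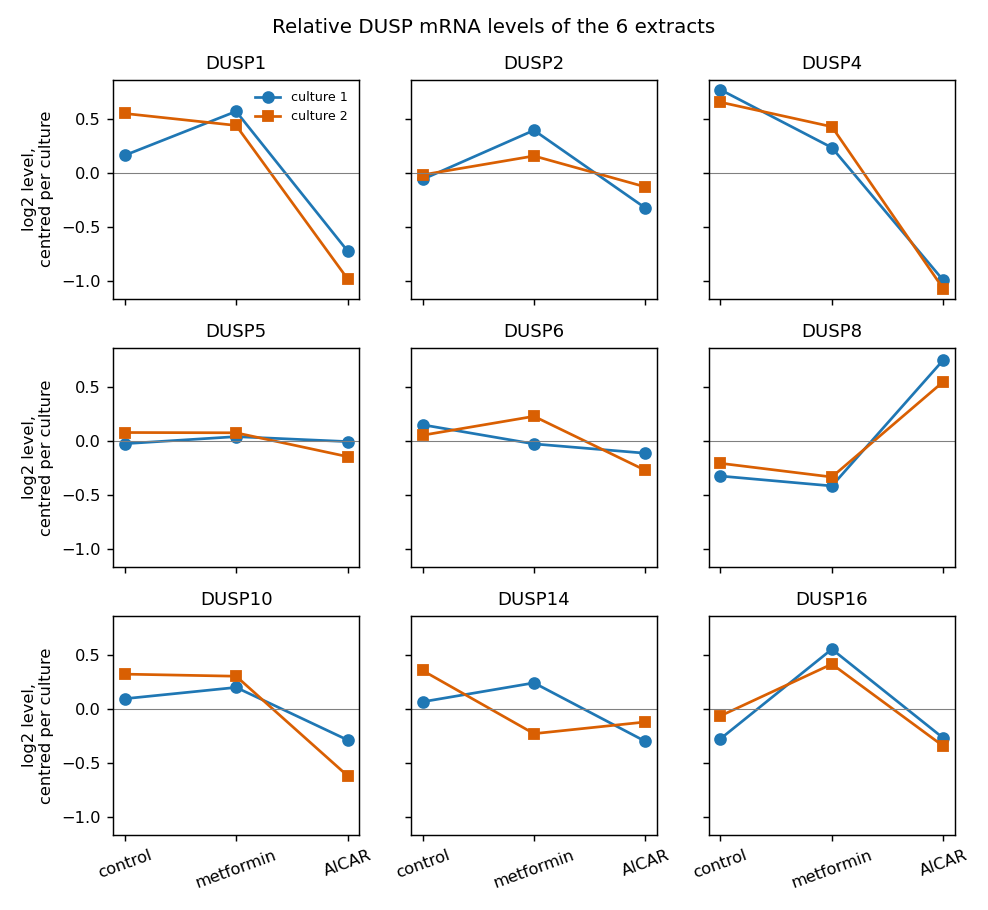
Relative log2 level of each member in the control, metformin and AICAR extracts (x axis), centred on 0 within each culture, with 1 line per culture. DUSP1 and DUSP4 drop in the AICAR extract of both cultures, DUSP8 rises there, and DUSP16 peaks in the metformin extract (0.55 and 0.41).

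The kinases that these phosphatases act on, and the kinases above them, are given as counts beside the shares of all transcripts. The shares were 1.50% higher and 1.24% lower for metformin against control, 0.453% and 2.89% for AICAR against control, and 4.59% and 2.01% for metformin against AICAR. Of 13 measured MAP kinases, 0 passed for metformin against control (3 at an unadjusted p under 0.05, limma) and 1 was lower with AICAR. That was MAPK7, the gene for ERK5, at −0.95 on the log2 scale (SE 0.12, adjusted p = 0.0223, limma). Metformin against AICAR gave 2 higher MAP kinases, MAPK7 at 0.83 (adjusted p = 0.0191, limma) and MAPK6, the gene for the atypical kinase ERK3, at 1.77 (SE 0.22, adjusted p = 0.0148, limma). The genes for ERK1, JNK1 and p38α, MAPK3, MAPK8 and MAPK14, did not pass in any comparison, and are named here with their values known. The log2 ratios of AICAR to control were −0.01, 0.14 and −0.54. Of 7 MAP kinase kinases, 0 passed with either drug against control (2 for each drug at an unadjusted p under 0.05, limma). Between the drugs, MAP2K4, an activator of JNK, was higher with metformin (log2 0.81, adjusted p = 0.0231, limma) and MAP2K5, the activator of ERK5, was lower (log2 −0.80, adjusted p = 0.0143, limma). Of 19 MAP3 kinases, 0 passed with metformin (4 at an unadjusted p under 0.05, limma) and 2 were lower with AICAR than in control cells. They were MAP3K14, the NF-κB-inducing kinase, at −1.01 (adjusted p = 0.0339, limma) and MAP3K5, the stress-activated kinase ASK1, at −0.80 (adjusted p = 0.0342, limma). MAP3K5 was also higher with metformin than with AICAR, at 0.98 (adjusted p = 0.0140, limma). Without the 3 arrays with slide numbers apart, MAPK7 still passed for AICAR against control, at −1.02 (adjusted p = 0.0399, limma). MAP3K14 and MAP3K5 did not, at −0.82 and −0.79 (adjusted p = 0.169 and 0.0687, limma).

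Of 14 other phosphatases of MAP kinases that were measured, 0 passed for metformin against control (2 at an unadjusted p under 0.05, limma). In this list 2 were higher with AICAR than in control cells and lower with metformin than with AICAR. PPM1D, the p53-induced phosphatase WIP1 that dephosphorylates p38, was at 0.86 against control (SE 0.08, adjusted p = 0.0142, limma) and at −1.09 for metformin against AICAR (adjusted p = 0.00555, limma). PPP2CA, a catalytic subunit of protein phosphatase 2A, was at 1.46 (SE 0.23, adjusted p = 0.0409, limma) and −1.67 (adjusted p = 0.0187, limma), and its near-identical copy PPP2CB could share its hybridization signal. Without the 3 arrays with slide numbers apart, neither passed for AICAR against control, with PPM1D at 0.69 and PPP2CA at 1.57 (adjusted p = 0.0671 and 0.0799, limma). The median of this list for AICAR against control was 0.15, beside 0.04 for all transcripts.

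Among 21 transcripts induced by ERK signalling or feeding back on it, 3 rose with metformin and 0 passed with AICAR (7 at an unadjusted p under 0.05, limma). Those 7 ratios of AICAR to control were all negative. EPHA2, named after its values were seen, had the smallest p of them, at −0.63 (adjusted p = 0.0251, limma), and missed only the ratio threshold. With metformin, ERRFI1, an inhibitor of the EGF receptor, was at 0.95 against control (SE 0.13, adjusted p = 0.0321, limma), with 1 array at −0.37 and the highest at 1.38. FOS, an immediate early transcription factor, was at 0.92 (SE 0.14, adjusted p = 0.0455, limma) and CXCL8, the chemokine interleukin-8, at 0.82 (SE 0.10, adjusted p = 0.0259, limma). All 3 were also higher with metformin than with AICAR, at 1.43, 1.09 and 1.10. Without the 3 arrays with slide numbers apart, culture 1 has no direct array of metformin against control. In that setting ERRFI1 still passed for this comparison, at 1.24, while FOS at 0.87 and CXCL8 at 0.92 did not (adjusted p = 0.0826 and 0.0571, limma). The median of the list was 0.03 for either drug against control.

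The list of 19 JNK and p38 effectors also held RPS6KA1, RPS6KA2 and RPS6KA3, kinases activated by ERK. In this list, 2 transcripts were higher and 1 lower with metformin than in control cells. MKNK2, a kinase of the translation factor eIF4E, was at 1.60 (SE 0.24, adjusted p = 0.0433, limma), JUND, a partner of FOS in AP-1, at 1.09 (SE 0.08, adjusted p = 0.0126, limma), and HSPB1, the small heat shock protein HSP27, at −1.30 (SE 0.10, adjusted p = 0.0126, limma). The same 3 differed between the drugs, at 2.35, 0.96 and −1.38. JUN, named after its values were seen, was also higher with metformin than with AICAR (log2 1.77, SE 0.21, adjusted p = 0.0142, limma), while its ratio of AICAR to control was −1.19 (adjusted p = 0.0551, limma). MAPKAPK5, likewise named after its values were seen, was lower with AICAR than in control cells (log2 −0.95, adjusted p = 0.0481, limma). Without the 3 arrays with slide numbers apart, MAPKAPK5 at −0.88 did not pass for AICAR against control (adjusted p = 0.145, limma), nor did MKNK2 at 1.51 for metformin against control (adjusted p = 0.0649, limma), while JUND and HSPB1 still passed. All 14 calls of these 6 lists for metformin against AICAR remained without those arrays. None of those arrays set metformin against AICAR, so leaving them out tests this comparison little.

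**Figure D5:**
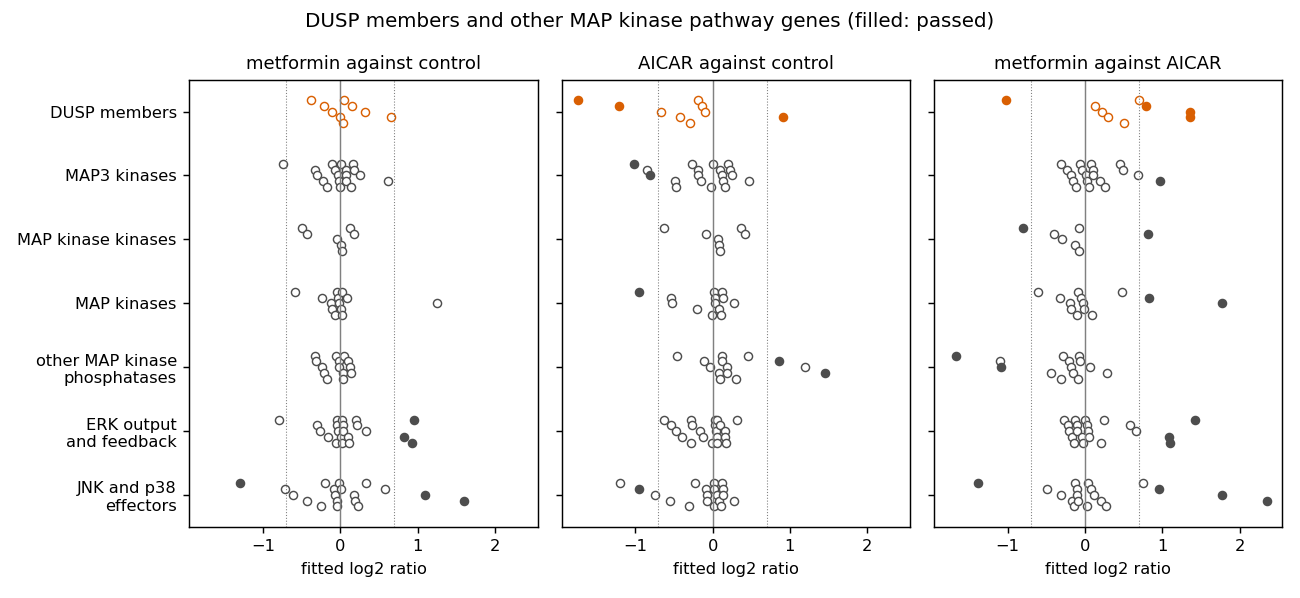
Fitted log2 ratios of the 9 DUSP members and of 6 lists of other MAP kinase pathway genes (rows) in the 3 comparisons (panels). Filled points passed the test, and dotted lines mark 0.7 and −0.7. DUSP4 at −1.75 has the lowest ratio of AICAR to control of all genes drawn.

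The genes whose pattern was most like that of a member were ranked by the distance over 4 fitted ratios, metformin and AICAR against control in each culture, among 14446 other named genes. This is a description, and the ratios of a culture share a control extract. For DUSP4 they were EFNA4 (distance 0.252), CENPA and ZNF544. CENPA, the centromeric histone variant, had ratios of −0.60 and −0.47 with metformin and −1.83 and −1.77 with AICAR in the 2 cultures. For DUSP1 they were TIGD7 (0.223), STBD1 and FBXO34. For DUSP8 they were CSAG2 (0.197), PPM1D (0.224) and PPP4R3A, and PPM1D had ratios of 0.95 and 0.77 with AICAR. For DUSP16 they were TOR1AIP1 (0.139), FAM107B and ORC4, with ratios of TOR1AIP1 to control of 0.84 and 0.50 with metformin.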

How the data were processed

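The deposited values are normalized log ratios of arrays printed with an oligonucleotide collection, and they were treated as log2 ratios with Cy5 as the numerator. The authors normalized them within slides by print-tip loess and between slides by quantiles with limma. Its version and any background correction are not given in the sources used here. No signal came with the ratios, so dim or saturated spots could not be marked. Ratios were turned by the dye labels, dye-swap partners were averaged, and the 6 means were turned into 6 extract levels by least squares. Treatment was fitted with culture as a block in limma 3.58.1 under R 4.3.3 (2 residual and 2.88 prior degrees of freedom), with the Benjamini-Hochberg adjustment over 24529 transcripts from 27648 features, of which 0 had missing values. Of these transcripts 14447 were named genes, and each feature left without a name counted as a transcript of its own. The shares of all transcripts include those unnamed features. Precision is limited by how few arrays there are.

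Of 17711 probes listed with 1 symbol, 17566 were named, and 145 with conflicting names were left unnamed. Names came through RefSeq (GRCh38.p14), except for 91 probes that kept the symbol listed on the platform. Probes of a gene were averaged. The 5 features listed as VH5 matched an immunoglobulin heavy chain segment in RefSeq and were not taken for DUSP8. DUSP10 was matched by symbol and the other members by accession.

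Array medians ranged from −0.0417 to 0.051. Oriented dye-swap partners correlated across transcripts at 0.425 to 0.722. The ratio of metformin to control obtained directly and the one through AICAR correlated at 0.818 and 0.754 in the 2 cultures. The cultures come from the replicate numbers of the labels, and the ratios exist only within a culture. Every extract has a labelled RIN of 9.

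The members, lists and alternatives were chosen with earlier results of these data known. Named were all members, the genes of smallest p among those that passed in each list (3 at most), and the 3 genes most like each member that passed in any comparison. The fit was tested on simulated data.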

Additional observations from a re-analysis of the deposited data

Results flagged for a closer look

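For metformin against control, the cultures of 2 members lay on opposite sides of 0 on every array, as seen in their dye-swap means. DUSP1 had a mean log2 ratio of 0.51 in culture 1 and −0.13 in culture 2, a difference of −0.64 (culture 2 minus culture 1). DUSP14 was at 0.16 and −0.67, a difference of −0.83. With 1 dye-swap pair in each culture, neither difference was tested. Both arrays of culture 1 in this comparison have slide numbers that stand apart, so culture and slide set cannot be told apart there. Among 27 sets of 4 arrays, 1 for each member and comparison, 0 held an array far from the others by Dixon's criterion. Its rate of 1 in 20 (1.35 sets) holds for independent values. Each set here is made of dye-swap pairs from 2 cultures, and the sets share extracts. The rate is therefore not a fair expectation, and the count of 0 clears no array.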

How the results depend on the processing

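With the culture as a replicate block, 0, 3 and 4 members passed for metformin against control, AICAR against control and metformin against AICAR. Over the alternatives these counts were 0, 2 to 3 and 3 to 5. The fit to 6 dye-swap means has no replicate block and gave 0, 3 and 5, although each of its ratios is still taken within a culture. There were no missing values to filter. Of 27 member ratios 7 passed. Of these 7, 0 changed sign and 4 passed in all 12 alternatives, namely DUSP4 in both comparisons with AICAR and DUSP8 and DUSP16 for metformin against AICAR. Of the 20 that did not pass, 19 stayed so in all 12. DUSP6 for metformin against control turned to 0.029 with terms for dye and slide set, and to 0.25 without the 3 arrays with slide numbers apart. DUSP10 for metformin against AICAR passed in 5 alternatives, with adjusted p from 6.37e-05 to 0.0473, and in 3 of them arrays were separate data points. DUSP16 for metformin against control had adjusted p from 5.25e-05 to 0.132 and passed in none of the 12, at log2 ratios from 0.65 to 0.71. The other pathway lists together held 6 transcripts that passed for metformin against control, 10 with arrays as separate data points and 3 without the 3 arrays. For AICAR against control they held 6, 10 and 1. Without the 3 arrays the calls over all transcripts fell as well. For metformin against control they went from 368 higher and 303 lower to 210 and 121. For AICAR against control they went from 111 higher and 709 lower to 59 and 380. Leaving out a culture left values with no test, and for the ratios that passed these were −0.88 and −1.53 (DUSP1), −1.76 and −1.73 (DUSP4) and 1.07 and 0.76 (DUSP8) for AICAR against control. From the direct ratios alone, 0 of all transcripts passed for metformin against control, so that setting could call no member. The cause of these differences was not tested. With 2 cultures, the median SE of a member was 0.12, beside 0.09 over all transcripts.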
